A study of Homo sapiens with 6 samples.

Results

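The 10 genes described here act in the response of cells to low oxygen, the oxygen-regulated transcription factors HIF1A and EPAS1 and 8 genes that these factors are known to induce, namely VEGFA, ADM, CA9, BNIP3, NDRG1, EGLN3, P4HA1 and ANKRD37. They are taken by name, as every entry of the count files that carries 1 of these symbols, with repeated entries of a symbol added together, and they make up 10 of the 24462 different symbols. Their levels are compared between 1CT (3 libraries), a human colon epithelial cell (HCEC) line that was immortalized and is labelled as human colonic epithelial progenitor cells of WT genotype, and 1CT-A (3 libraries), a derivative of the line with depleted APC labelled APC KD. APC is a scaffold of the complex that degrades β-catenin, and the comparison asks how its depletion changes expression in colon cells. Both lines are untreated and grow in DMEM and M199 medium with EGF at 20 ng/ml, hydrocortisone, insulin, transferrin, 5 nM sodium selenite and 2% FBS, and no culture at low oxygen is named for either. Each group is 1 cell line, and both lines reached the study ready made from the same other laboratory. Nothing says that the 3 libraries of a line come from separate cultures. The p-values therefore measure the spread between these libraries, which may be technical.

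Cells answer low oxygen through HIF, a transcription factor made of an oxygen-regulated alpha subunit and the constant partner ARNT. When oxygen is present, the EGLN prolyl hydroxylases mark the alpha subunit, the VHL ubiquitin ligase binds the mark and the protein is degraded, whereas at low oxygen it persists, enters the nucleus with ARNT and switches on genes for blood vessel growth, glycolysis, pH control, matrix maturation and removal of mitochondria. This control works on the HIF protein, which is not measured by RNA-seq. In tumors of the colon HIF target genes such as VEGFA and CA9 are widely used as marks of poor oxygen supply.

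The libraries hold 7788679 to 8452258 counts in 1CT and 11158108 to 12602988 in 1CT-A. Levels are given as CPM, counts scaled to the total of their own library, and as these are libraries of transcript 3′ ends, they are compared between cell lines and not between genes. APC itself has 46.6 ± 2.75 CPM in 1CT and 31.9 ± 2.21 in 1CT-A (SD, n = 3 each), a log2 fold change of -0.58 (SE 0.09, adjusted p = 0.000176, edgeR), in the direction of the labels. Differences between the lines are frequent, as 6388 of the 12514 genes tested pass the quasi-likelihood test of edgeR with an adjusted p under 0.05, which is 51.0%, with 25.0% higher and 26.0% lower in 1CT-A. The labelled epithelial type is weakly marked, since 6 of 10 colon epithelial markers have at most 3 counts in every library and EPCAM, CDX1 and VIL1 have 0. Their summed level lies between 13.4 and 17.4 CPM in the 1CT libraries and between 3.23 and 7.28 CPM in the 1CT-A libraries. The 8 fibroblast markers sum to between 4664 and 5656 CPM in 1CT and between 4301 and 4605 in 1CT-A, the 6 endothelial markers to at most 6.76 CPM and the 6 leukocyte markers to at most 15.1 CPM in any library. The fibroblast sum hides changes in both directions, as 2 of its 8 markers rise and 4 fall, where 25.0% and 26.0% of all genes tested do. At most 3 counts in every library are held by 5 of the 6 endothelial and 3 of the 6 leukocyte markers. The part of these marker levels in the values below was not tested.

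Of the 9 members that pass the filter on low counts, 4 rise in 1CT-A (VEGFA, ADM, CA9 and BNIP3), 1 falls (HIF1A) and 4 do not pass the test (EPAS1, NDRG1, P4HA1 and ANKRD37), while EGLN3 has too few counts to be tested. As these are bulk libraries, a level that differs because fewer cells carry a transcript cannot be told apart from less of it per cell. The 5 calls are 55.6% of the tested members, near the 51.0% of all genes. For 6 tested members no 1CT-A library lies within the range of the 1CT libraries, against 59.7% of all genes tested. The median log2 fold change of the tested members is 0.13 and their median absolute change 0.23, against -0.01 and 0.36 over all genes tested. The study's methods ask for a change of 2-fold or more with an unadjusted p under 0.01, which 13.4% of all genes tested reach and 3.80% reach upward. CA9, upward, is the member that does so, and it passed the filter on low counts through its 1CT-A libraries, so its call is given as a description. The members therefore differ from each other in direction, and their number of calls is close to the background.

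**Figure D1:**
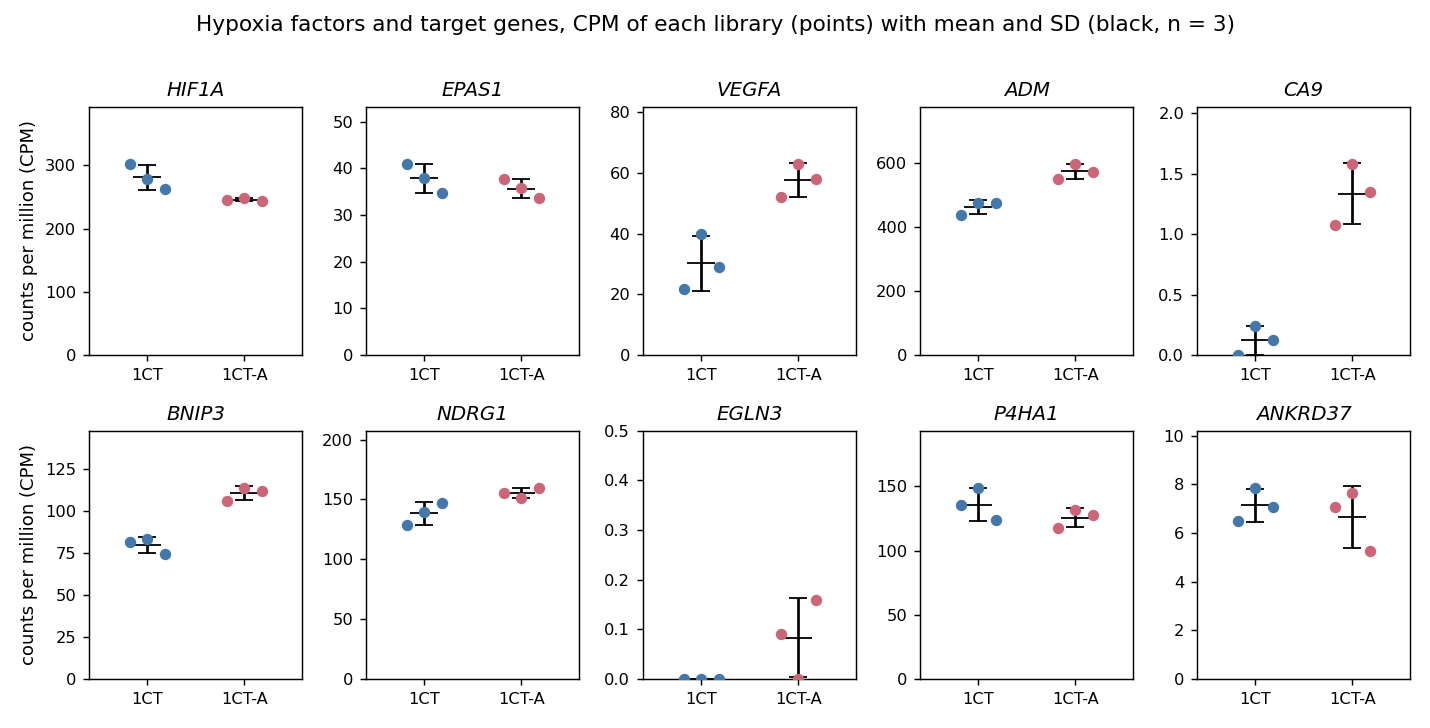
CPM of each member (vertical axes, from 0, each with its own scale) in the 3 libraries of 1CT (blue) and of 1CT-A (red), with the mean and SD in black. The points of the lines do not overlap for HIF1A, VEGFA, ADM, CA9, BNIP3 and NDRG1, and for EGLN3 they stay under 0.2 CPM.

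HIF binds DNA at short elements whose core reads ACGTG or GCGTG. RefSeq promoter sequence (GRCh38.p14) was available for 8 of the 10 members, and not for VEGFA and NDRG1. In the 250 bases before the start, on either strand, 7 of these 8 members hold ACGTG or GCGTG, and EGLN3 holds neither. HIF1A has a further start whose window holds neither, and is counted by the window that holds a match. The member windows with a match are 60.4% to 81.6% G and C, and the background below is not matched for this. That background is counted per window and not per gene. Among all 35116 promoter windows of this length 43.2% hold either motif, 18.5% ACGTG and 32.2% GCGTG, so a match is common. The stretches below are shown because they belong to 3 target genes that rise in 1CT-A (CA9, BNIP3 and ADM) and to 2 that do not pass the test (P4HA1 and ANKRD37). They run 5′ to 3′ in the direction of the gene, with the motif in capitals on whichever strand it lies, and those of CA9 and P4HA1 are kept to 29 bases because GENCODE release 44 annotates an exon there, of ARHGEF39 and of P4HA1.
CA9, chr9:35673898-35673926, plus strand: tcgtttccaatgCACGTacagcccgtaca
BNIP3, chr10:131981983-131982106, minus strand: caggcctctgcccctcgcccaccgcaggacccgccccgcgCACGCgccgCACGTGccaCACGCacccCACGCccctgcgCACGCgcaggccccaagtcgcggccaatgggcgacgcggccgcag
ADM, chr11:10304932-10305016, plus strand: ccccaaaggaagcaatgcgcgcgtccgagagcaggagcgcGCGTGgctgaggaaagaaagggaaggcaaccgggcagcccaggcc
P4HA1, chr10:73096936-73096964, minus strand: tgtgatcgagctCACGTagcgagggctgc
ANKRD37, chr4:185396639-185396742, plus strand: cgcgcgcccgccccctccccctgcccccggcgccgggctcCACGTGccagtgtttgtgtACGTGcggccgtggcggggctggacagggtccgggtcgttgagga
BNIP3 holds 2 overlapping ACGTG matches, read on opposite strands of CACGTG, and 4 GCGTG matches between 100 and 143 bases before its start. ANKRD37 also holds CACGTG, which 6.34% of all windows contain, and a further ACGTG that ends 139 bases before its start. In CA9 the match ends 14 bases before the start and in P4HA1 it ends 82 bases before it. The windows of the genes that rise and of those that do not both hold the motif, and a match is a string of letters and no measure of binding.

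HIF1A encodes the alpha subunit HIF-1α. Its level is 302, 278 and 263 CPM in the 3 1CT libraries and 246, 249 and 243 CPM in the 3 1CT-A libraries. All 1CT-A libraries lie below all 1CT libraries, and the 1CT-A libraries are much closer to each other. The means are 281 ± 19.9 and 246 ± 2.76 CPM (SD, n = 3), and the log2 fold change is -0.23 (SE 0.07, 95% interval -0.38 to -0.08, adjusted p = 0.0127, edgeR), a reduction that is small beside the median absolute change of all genes. The call is lost without 1CT replicate 1 (-0.18, adjusted p = 0.0695, edgeR), without 1CT-A replicate 3 (-0.22, adjusted p = 0.0652) and with no filter on low counts (-0.19, adjusted p = 0.0505). The antisense gene HIF1A-AS2 overlaps HIF1A by 1220 bases in the gene annotation of RefSeq. It holds 2437, 2243 and 1960 counts in 1CT and 2663, 2764 and 2986 in 1CT-A, between 95.4% and 97.6% of the HIF1A count in every library. As the use of strand in the counting is not given in the sources used here, reads of HIF1A and of HIF1A-AS2 cannot be told apart.

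EPAS1 encodes HIF-2α, the alpha subunit known for its roles in endothelium and in the control of iron uptake. It has 40.9, 37.9 and 34.8 CPM in 1CT and 37.6, 35.8 and 33.6 CPM in 1CT-A, and the sets of libraries overlap. The log2 fold change of -0.13 (SE 0.09, adjusted p = 0.282, edgeR) does not pass the test and has a 95% interval from -0.33 to 0.08. It is -0.07 without 1CT replicate 1 and -0.08 without 1CT-A replicate 3. Within each library the log2 ratio of EPAS1 to HIF1A counts, which needs no scaling, is -2.88, -2.88 and -2.92 in 1CT and -2.71, -2.80 and -2.86 in 1CT-A. Every 1CT-A library lies above every 1CT library by a narrow margin, and the difference of 0.11 has an exact two-sided permutation p of 0.1, the smallest that 3 libraries against 3 can give.

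VEGFA, the secreted growth factor that draws new blood vessels, shows the largest fold rise among the tested members other than CA9. The counts are 183, 330 and 226 in 1CT and 579, 716 and 731 in 1CT-A, which correspond to 21.7, 39.8 and 29.0 CPM and to 51.9, 62.8 and 58.0 CPM. The lowest 1CT-A library lies above the highest 1CT library, but the 1CT libraries spread widely, with a coefficient of variation of 30.3% where counting alone gives 6.37%. The mean rises from 30.2 ± 9.15 to 57.6 ± 5.49 CPM (SD, n = 3), which is 0.89 as a log2 fold change (SE 0.16, adjusted p = 0.000462, edgeR), or 1.86-fold with a 95% interval from 1.46 to 2.36. When any 1 library is omitted the log2 fold change stays between 0.70 and 1.15 and the call holds.

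ADM encodes adrenomedullin, a secreted peptide that widens vessels and is induced in many tissues by low oxygen. It has 437, 475 and 474 CPM in 1CT and 551, 597 and 573 CPM in 1CT-A. All 1CT-A libraries are higher, and the spread within a line is small. The change from 462 ± 21.5 to 574 ± 22.6 CPM (SD, n = 3) gives a log2 fold change of 0.27 (SE 0.07, 95% interval 0.13 to 0.41, adjusted p = 0.0035, edgeR), a rise smaller than the median absolute change of all genes tested.

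CA9 encodes carbonic anhydrase IX, a membrane enzyme that acts in pH control and is hardly made in most cells with sufficient oxygen. It is barely counted here, with 0, 2 and 1 counts in 1CT and 12, 18 and 17 in 1CT-A. The sets do not overlap, although the 1CT libraries are shallower. Over the summed libraries this is 3 of 24523150 counts against 47 of 35154413, a ratio of 10.9 with a 95% exact interval from 3.52 to 54.9 that covers counting error alone. CA9 enters the test through its 1CT-A counts alone and fails the filter without 1CT-A replicate 2 or 3, so a gene that passed in this way had to differ. The adjusted p of 0.000715 (edgeR) is to be read with that selection, and the fitted log2 fold change of 3.28 depends on the prior count and moves to 4.16 without 1CT replicate 2. Even in 1CT-A the level is 1.08, 1.58 and 1.35 CPM, so CA9 remains among the rarely counted genes in both lines.

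BNIP3, an outer mitochondrial membrane protein that directs mitochondria to autophagy, has 81.6, 83.2 and 74.2 CPM in 1CT and 106, 114 and 112 CPM in 1CT-A. The lines are well separated and the libraries of each lie close together. The log2 fold change is 0.43 (SE 0.08, 95% interval 0.27 to 0.60, adjusted p = 0.000359, edgeR), from 79.7 ± 4.80 to 111 ± 4.06 CPM (SD, n = 3). PPP2R2D overlaps BNIP3 on the genome and holds between 13.5% and 20.1% as many counts.

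NDRG1, a protein of the stress and differentiation response, has 128, 139 and 147 CPM in 1CT and 156, 151 and 160 CPM in 1CT-A. The 1CT-A libraries all lie above the 1CT libraries, but the log2 fold change of 0.13 (SE 0.08, 95% interval -0.03 to 0.29) does not pass the test (adjusted p = 0.169, edgeR). Without 1CT replicate 3, the highest of its line, it passes at 0.19 (adjusted p = 0.0248, edgeR).

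P4HA1 encodes an alpha subunit of the prolyl hydroxylase that stabilizes collagen. It has 135, 149 and 124 CPM in 1CT and 117, 132 and 128 CPM in 1CT-A, and the sets overlap. The log2 fold change of -0.15 (SE 0.08, 95% interval -0.32 to 0.02) does not pass (adjusted p = 0.137, edgeR), while it does without 1CT replicate 3 (-0.20, adjusted p = 0.0285) and with upper-quartile factors (-0.21, adjusted p = 0.0462).

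ANKRD37, a small ankyrin repeat protein, has 6.51, 7.85 and 7.06 CPM in 1CT and 7.08, 7.64 and 5.24 CPM in 1CT-A. The sets overlap and no direction can be given, as the log2 fold change of -0.15 (SE 0.19, 95% interval -0.55 to 0.26, adjusted p = 0.546, edgeR) becomes 0.01 without 1CT-A replicate 3. The gene overlaps UFSP2, which holds between 502% and 712% as many counts, so its own level is uncertain.

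EGLN3, the oxygen sensor that is itself induced by HIF, has 0 counts in every 1CT library and 1, 0 and 2 counts in 1CT-A. A count of 0 allows up to 3 counts, which is 0.355 to 0.385 CPM in a 1CT library, and all 1CT-A libraries lie below this, so a difference is not detectable at this depth and no fold is given.

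**Figure D2:**
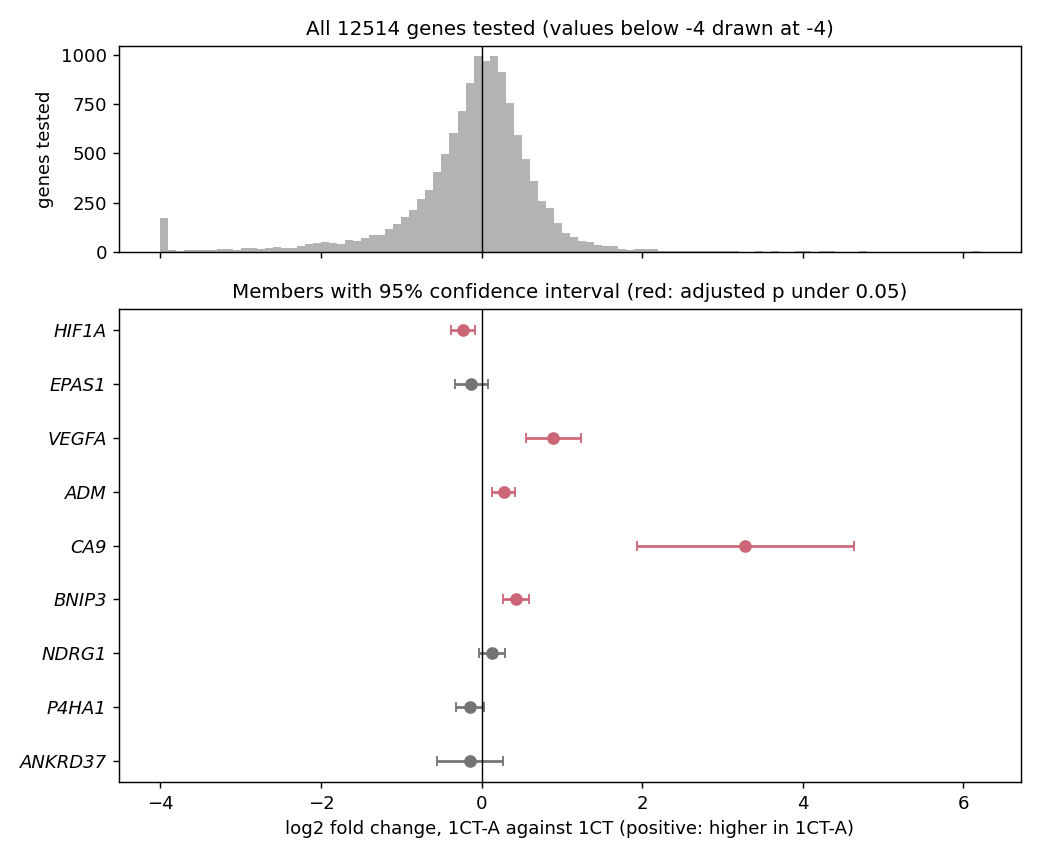
The upper panel shows the log2 fold changes of all 12514 genes tested (horizontal axis, positive when higher in 1CT-A; vertical axis, number of genes), and the lower panel those of the 9 tested members with their 95% intervals, in red where the adjusted p is under 0.05. VEGFA at 0.89 and CA9 at 3.28 stand to the right, while the other members lie between -0.23 and 0.43, within the bulk of the genes.

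The other genes of the oxygen-sensing pathway come from a list of 14, all of which are tested. Of these 2 rise, 5 fall and 7 do not pass, so 7 of 14 are called, near the background of 51.0%. ARNT, the common partner of the alpha subunits, has 48.3, 53.9 and 45.2 CPM in 1CT and 62.0, 65.1 and 64.7 CPM in 1CT-A. The sets do not overlap and ARNT rises, with a log2 fold change of 0.34 (SE 0.08, adjusted p = 0.00448, edgeR), while HIF1A falls. ARNT2, a related partner, falls by 1.07 on the log2 scale (SE 0.23, adjusted p = 0.00183) and HIF3A, a further alpha subunit, falls by 1.32 (SE 0.28, adjusted p = 0.00157), both from under 10 CPM. The oxygen sensors EGLN1 (0.15), EGLN2 (0.21, adjusted p = 0.0528, edgeR) and HIF1AN (0.05) do not pass the test, although EGLN2 does when scaled by library size alone (0.25, adjusted p = 0.0228), with no filter (adjusted p = 0.0195), with limma-voom (adjusted p = 0.0474) and without 1CT replicate 3 (adjusted p = 0.0137).

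In the VHL ubiquitin ligase, VHL itself (log2 fold change 0.11), TCEB1 (0.14) and RBX1 (0.13) do not pass, apart from TCEB1 without 1CT replicate 1 (0.31, adjusted p = 0.0405), the elongin TCEB2 falls (-0.54, SE 0.08, adjusted p = 5.85e-05, edgeR) and the scaffold CUL2 rises (0.51, SE 0.18, adjusted p = 0.0302). The CUL2 call is lost without 1CT replicate 3 (0.32, adjusted p = 0.0682) and without 1CT-A replicate 2 (0.40, adjusted p = 0.128). CITED2, which competes with HIF for its coactivators and is also a HIF target, shows the largest change of the pathway genes over 10 CPM. It has 223, 196 and 131 CPM in 1CT and 82.7, 89.5 and 90.7 CPM in 1CT-A, without overlap, and falls by 1.10 on the log2 scale (SE 0.14, adjusted p = 2.85e-05, edgeR). Of the coactivators, EP300 falls by 0.34 (SE 0.12, adjusted p = 0.0292), a call that is lost in 6 of its 15 alternatives, and CREBBP (0.20) does not pass except when scaled by library size alone (0.24, adjusted p = 0.0358).

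VEGFA acts with related ligands and through receptors, and of 8 such genes listed 5 are tested, 3 rise and 1 falls, where 25.0% of all genes tested are higher and 26.0% lower. NRP2, a coreceptor of VEGF ligands, has 11.9, 16.8 and 13.7 CPM in 1CT and 47.9, 47.3 and 49.4 CPM in 1CT-A. This rise of 1.73 on the log2 scale (SE 0.12, adjusted p = 9.9e-08, edgeR) is larger than that of VEGFA and has no overlap. The coreceptor NRP1 rises by 0.29 (SE 0.08, adjusted p = 0.00684) and the ligand VEGFB by 0.37 (SE 0.13, adjusted p = 0.0327), the second a call that 7 of its 15 alternatives lose, while VEGFC at -0.24 (adjusted p = 0.38) does not pass except without 1CT replicate 3 (-0.50, adjusted p = 0.0074). The signaling receptors KDR and FLT4 have at most 1 count in any library. FLT1, a receptor named after its values were seen, has 31, 140 and 41 counts in 1CT and 4, 17 and 11 in 1CT-A, and falls by 3.26 (SE 0.58, adjusted p = 0.000412, edgeR). Its fall is 2.32 without 1CT replicate 2, which holds most of its counts. FLT1 passed the filter on low counts through its 1CT libraries, so its call is given as a description.

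The receptor of adrenomedullin is made of CALCRL and a RAMP protein, and of 5 genes listed around it 2 are tested, both named after their values were seen. RAMP1 has 46, 48 and 52 counts in 1CT and 5, 7 and 7 in 1CT-A and falls by 3.47 on the log2 scale (SE 0.29, adjusted p = 6.74e-07, edgeR). ACKR3, a scavenging receptor, has 0, 57 and 7 counts in 1CT and 101, 129 and 134 in 1CT-A. Its log2 fold change of 1.95 (SE 0.58, adjusted p = 0.0134, edgeR) is not called by DESeq2 (adjusted p = 0.324) and becomes 4.50 without 1CT replicate 2. RAMP1 passed the filter on low counts through its 1CT libraries and ACKR3 through its 1CT-A libraries, so both calls are given as descriptions. CALCRL, RAMP2 and RAMP3, which form the receptors known to bind ADM best, do not pass the filter on low counts.

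A wider list of 60 known HIF targets, of which 53 are tested, shows how far the members stand for such genes. In this list 13 genes rise and 20 fall, so 62.3% are called against 51.0% of all genes tested, and the median log2 fold change is -0.06. The strongest rise over 10 CPM is that of HK2, the hexokinase of glucose trapping, with 26.1, 37.9 and 27.0 CPM in 1CT and 93.2, 101 and 101 CPM in 1CT-A (1.66, SE 0.12, adjusted p = 1.97e-07, edgeR). Of 18 genes of glucose uptake and glycolysis 5 rise and 3 fall, where 25.0% of all genes tested are higher and 26.0% lower. This is 44.4% called, below the 51.0% of all genes tested. With another scaling between 4 and 7 rise and 2 or 3 fall. SLC6A8, the creatine transporter (0.86), TFRC, the transferrin receptor (0.65), the mitochondrial protein HIGD1A (0.61), the mTOR inhibitor DDIT4 (0.46) and the glucose transporter SLC2A1 (0.39) rise too, with adjusted p between 8.22e-06 for HIGD1A and 0.00787 for SLC2A1 (edgeR).

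Other targets move the opposite way from VEGFA. ANGPTL4, a secreted inhibitor of lipoprotein lipase, has 1397, 1228 and 1480 CPM in 1CT and 232, 234 and 234 CPM in 1CT-A. The lines lie far apart and ANGPTL4 falls, by 2.59 on the log2 scale (SE 0.08, adjusted p = 1.24e-10, edgeR). Against 26.0% lower among all genes tested, 5 of the 6 secreted and surface targets tested fall and TFRC rises, with STC1, a secreted regulator of calcium, at -0.93 (SE 0.08). Of the 5 genes of collagen and matrix maturation 4 fall, against the same 26.0%, among them the crosslinking enzyme LOX (-1.23, SE 0.13) and P4HA2 (-0.82, SE 0.08), and these counts are the same with DESeq2's size factors, upper-quartile factors and library size alone. KCTD11 falls as well (-0.99, SE 0.19, adjusted p = 0.00065, edgeR). Named HIF targets thus lie on both sides of 0.

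**Figure D3:**
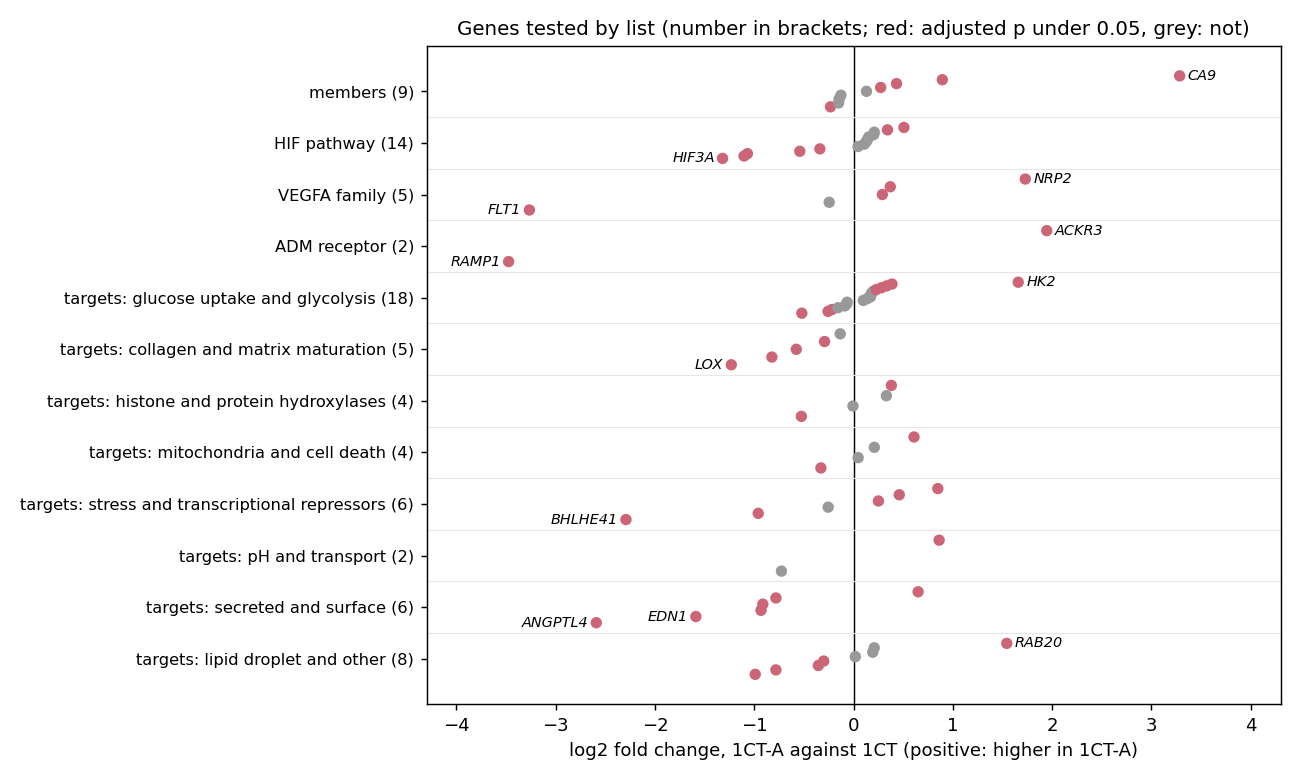
Log2 fold change between the cell lines (horizontal axis, positive when higher in 1CT-A) for each tested gene of the members, of the pathway lists and of the wider target list by role (vertical axis, number tested in brackets), in red where the adjusted p is under 0.05; genes beyond 1.2 in either direction carry their names. Among genes that average 10 CPM or more, NRP2 at 1.73 and HK2 at 1.66 stand on the right. On the left these are ANGPTL4 at -2.59 and LOX at -1.23. Some genes with fewer counts lie further out, among them CA9 at 3.28, ACKR3 at 1.95, RAMP1 at -3.47 and FLT1 at -3.26.

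Some members have a close relative with the same kind of role, and the ratio within a library shows the shift between the relatives without any scaling. These 3 ratios were chosen after the values were seen. BNIP3 and BNIP3L both direct mitochondria to autophagy, and their log2 ratio of counts is 0.82, 0.66 and 0.84 in 1CT and 1.63, 1.42 and 1.55 in 1CT-A. P4HA1 and P4HA2 are alternative subunits of the collagen prolyl hydroxylase, and their log2 ratio is -0.38, -0.27 and -0.58 in 1CT and 0.31, 0.24 and 0.25 in 1CT-A. In both pairs all 1CT-A libraries lie above all 1CT libraries, by 0.76 and 0.68 on average. For VEGFA to VEGFC the log2 ratio is 0.05, 1.34 and 1.73 in 1CT and 1.99, 2.19 and 2.20 in 1CT-A, a difference of 1.08 that becomes 0.59 without 1CT replicate 1. Each of the 3 ratios has an exact two-sided permutation p of 0.1, the smallest possible with 3 libraries against 3. BNIP3L alone falls (-0.33, SE 0.11, adjusted p = 0.0191, edgeR), so this pair moves apart in both directions, although the BNIP3L call is lost without 1CT replicate 2 (adjusted p = 0.0942), without 1CT-A replicate 1 (adjusted p = 0.0922) and without 1CT-A replicate 3 (adjusted p = 0.063).

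**Figure D4:**
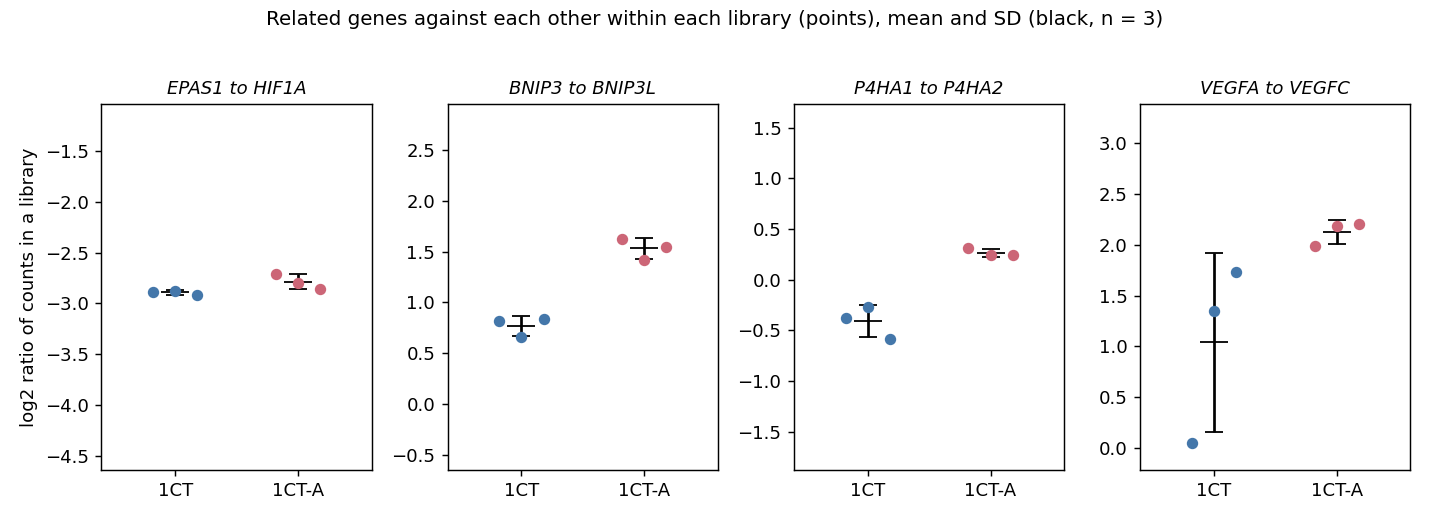
Log2 ratio of the counts of related genes within each library (vertical axes, all of the same length) for 1CT (blue) and 1CT-A (red), with the mean and SD of 3 libraries in black. The lines differ by 0.11 for EPAS1 to HIF1A, 0.76 for BNIP3 to BNIP3L, 0.68 for P4HA1 to P4HA2 and 1.08 for VEGFA to VEGFC, where the 1CT libraries range from 0.05 to 1.73.

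The genes whose profiles over the 6 libraries are most like those of 3 members are found by the root-mean-square difference of log2 CPM after each gene is centred on its own mean, over 8224 genes of at least 10 CPM. For HIF1A these are HIF1A-AS2 (0.01), GOLIM4 (0.03) and NDUFA1 (0.03), for EPAS1 TMED10P1 (0.01), XIAP (0.03) and SAMD9 (0.04), and for VEGFA GJA1 (0.08), SUPT20H (0.11) and ALDH2 (0.11). As these genes are picked by likeness over all 6 libraries, a spread shared within 1CT is part of the choice and no separate result. Reads of HIF1A-AS2 and of HIF1A cannot be told apart, as said above, so the likeness of HIF1A-AS2 is no separate result either. GJA1, a gap junction protein, has 74, 135 and 82 counts in 1CT and 201, 279 and 274 in 1CT-A, between 34.7% and 40.9% of the VEGFA count in each library. For SUPT20H this share lies between 58.8% and 73.2%, and for ALDH2 between 64.7% and 82.0%.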

How the data were processed

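Total RNA (500 ng) is made into QuantSeq 3′ libraries. The authors deposited 1 file of raw counts per library and gene symbol. The submitters' processing notes name Bowtie2, edgeR and hg19, whereas counting tool, annotation and use of strand are not given in the sources used here. Each file has 25737 entries for 24462 symbols, and the 286 symbols entered repeatedly are summed. The main test is edgeR 4.0.16 (R 4.3.3), quasi-likelihood, 1CT-A against 1CT, with TMM factors of 0.976 to 1.02, filterByExpr with a minimum count of 10 and Benjamini-Hochberg adjustment over 12514 genes, a design fitted to counts in place of the per-gene test of the study. It was run on simulated data in which few genes changed and all had the same spread beyond counting noise. That setting is simpler than these libraries, so it does not test the calls given here. CPM values are of each file's total without TMM. A value is read as visible from 3 counts, and intervals and floors cover counting error alone. Replicates of a line differ beyond counting noise (chi-square per degree of freedom 3.11 to 9.00). The replicate numbers are shared by the lines, but same-numbered libraries do not deviate together. The members and lists were chosen with earlier results of these data known. Other genes named are all 14 pathway genes, up to 6 called genes in each direction per list that average 10 CPM or more, the 3 genes most like HIF1A, EPAS1 and VEGFA, and those said to be picked by value. A gene that this rule names is not reported here. Alternatives include DESeq2 1.42.0 and limma-voom (limma 3.58.1). Promoter sequences are those of RefSeq (GRCh38.p14).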

Additional observations from a re-analysis of the deposited data

How the results depend on the processing

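The directions of HIF1A, EPAS1, VEGFA, ADM, CA9, BNIP3, NDRG1 and P4HA1 hold in every alternative that tests them, and the calls of VEGFA, ADM and BNIP3 hold too. CA9 is called in the 12 of its 15 alternatives that test it. It fails the filter without 1CT-A replicate 2 or 3 and with at least 10 counts in every library. Apart from the fit with no filter, these 12 admit CA9 through its 1CT-A counts, so its call stays a description. Over the 6 fits that leave out 1 library, log2 fold changes run from -0.26 to -0.18 for HIF1A, -0.17 to -0.069 for EPAS1, 0.077 to 0.19 for NDRG1, -0.20 to -0.081 for P4HA1 and -0.25 to 0.013 for ANKRD37, whose lone value above 0 comes without 1CT-A replicate 3. HIF1A is not called without 1CT replicate 1, without 1CT-A replicate 3 or with no filter (-0.19), and P4HA1 is called with upper-quartile factors (-0.21). The number of members called runs from 3 to 7 and the number lower from 0 to 2 over the libraries left out. It falls to 3 without 1CT-A replicate 3, where CA9 is not tested and HIF1A does not pass. The number lower is 2 with upper-quartile factors, 0 with no filter and 0 at an adjusted p under 0.01, and 3 genes of the pathway, VEGF and ADM receptor lists rise at that threshold in place of 6. HIF1AN becomes -0.010 with upper-quartile factors. TCEB1 runs from -0.0047, without 1CT replicate 3, to 0.31, where it is called, and VEGFC from -0.50, where it is called, to 0.062, without 1CT replicate 1. Over all genes, library size alone gives 3441 higher and 3014 lower and upper-quartile factors 2681 and 3661, against 3131 and 3257, with shifts of the median under 0.1. Apart from what is said above, the cause of these changes was not tested. With the replicate block 2993 genes are higher and 3098 lower, and the same number of members, 4 higher and 1 lower, is called. The numbers come only from the labels, and the correlations of same-numbered libraries over 8231 genes are -0.153, 0.21 and -0.135. For 44 other named genes, 611 of 657 values keep direction and call, 36 lose the call, 7 gain it and 3 reverse. Depth limits CA9 and EGLN3.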
